A study of Mus musculus with 6 samples.

Results

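Barcodes with neural transcripts were examined in a droplet-based single-cell RNA-seq series of mouse macrophage and monocyte lineage cells. Members were chosen by the measured counts of 2 genes: a barcode had to hold at least 2 unique molecular identifiers (UMIs) of Tubb3 and at least 2 of Stmn2, besides 1000 or more UMIs, 500 or more genes and a mitochondrial share of 10% or less. Of 34587 kept barcodes, 504 were members, a share of 1.46% (exact binomial 95% interval 1.33 to 1.59). Such intervals cover counting error only. Members were split by Csf1r, the receptor that macrophages need for survival. Of the members, 288 held 3 or more Csf1r UMIs (Csf1r-high members), 206 held 0 or 1 (Csf1r-low members) and 10 held exactly 2 and were set aside.

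The labels describe 6 samples in 3 groups of 2. The first group came from Cx3cr1CreER; R26tdTomato embryos labelled with 4-hydroxytamoxifen at E9.5. The second came from Csf1r-Mer-iCre-Mer; Csf1r-EGFP; R26tdTomato embryos labelled at E8.5, and both were collected at E14.5 from cell suspensions of whole bodies (E, embryonic day). In these lines Cre, once activated by the drug, switches on tdTomato in cells that use the Cx3cr1 or the Csf1r promoter and in their descendants. The third group was total bone marrow of wildtype C57BL/6 mice 2 months old, with no drug. The matrix pools its barcodes under 4 library numbers that match no label, so no library was assigned to a group. Its name holds Cx3cr1 and Csf1r and not bone marrow, so whether any marrow barcodes are in it was not established. No comparison between groups and no test was made, because barcodes of a pooled matrix are not replicates; each value is given pooled and, where space allows, for libraries 1 to 4. The kept barcodes numbered 8369, 7063, 7196 and 11959 in libraries 1 to 4, with total UMIs of 105177088 to 196452210 and median UMIs of 13077 to 14956.5 per barcode.

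Tubb3 encodes a neuronal beta-tubulin and Stmn2 a stathmin that regulates microtubules in growing axons, and both serve as markers of newly formed neurons. Microglia, the macrophages of brain tissue, enter the embryonic brain from the yolk sac and are marked by P2ry12, Tmem119 and Siglech. Macrophages at the borders of the brain and in most other tissues carry Lyve1, Mrc1, Folr2 and Pf4 instead. Macrophages of both kinds take up dying cells during development, and neurons address them through ligands such as Cx3cl1, Cd200 and Cd24a. A droplet barcode can hold the RNA of more than 1 cell, of a cell with engulfed material, or of a cell and free RNA. These were not told apart here.

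In the GRCm38 (mm10) annotation of GENCODE vM21, Tubb3 (ENSMUSG00000062380) lies on chromosome 8 from 123411424 to 123422015 on the plus strand, and Stmn2 (ENSMUSG00000027500) on chromosome 3 from 8509360 to 8561606 on the plus strand. Lyve1 lies on chromosome 7 from 110850607 to 110863239 on the minus strand, and P2ry12 on chromosome 3 from 59216272 to 59262871 on the minus strand.

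Members were found in every library, at 185, 163, 52 and 104 barcodes in libraries 1 to 4. As shares of kept barcodes these were 2.21%, 2.31%, 0.723% and 0.870%, so libraries 1 and 2 held them more often than libraries 3 and 4. The Csf1r-high members made up 57.1% of all members (exact binomial 95% interval 52.7 to 61.5). Their share was 46.5% in library 1, against 63.8%, 63.5% and 62.5% in libraries 2, 3 and 4. Without library 1 it was 63.3%. In all, 571 barcode sequences occurred in more than 1 library. Of the members, 25 carried such a sequence, and no member shared its sequence with another member.

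The Csf1r counts of the members fell into separate ranges. There were 170 members with 0 Csf1r UMIs, 36 with 1 and 10 with 2, then 3 with 3 UMIs, 5 with 4 and 12 with 5, while the median of the Csf1r-high members was 16 UMIs. Few barcodes therefore lay near the limit of the split. The limits on Tubb3 and Stmn2 were less separated. The 22 members with exactly 2 UMIs of each gene, of which 16 were Csf1r-high and 6 Csf1r-low, had a median of 6 UMIs over 20 pan-neuronal genes that the rule did not use. Just outside the limit, the 147 barcodes with Tubb3 at 2 or more and Stmn2 at 1 had a median of 8 such UMIs, and 105 of them were Csf1r-high. The 194 barcodes with exactly 1 UMI of each gene had a median of 2.

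**Figure D1:**
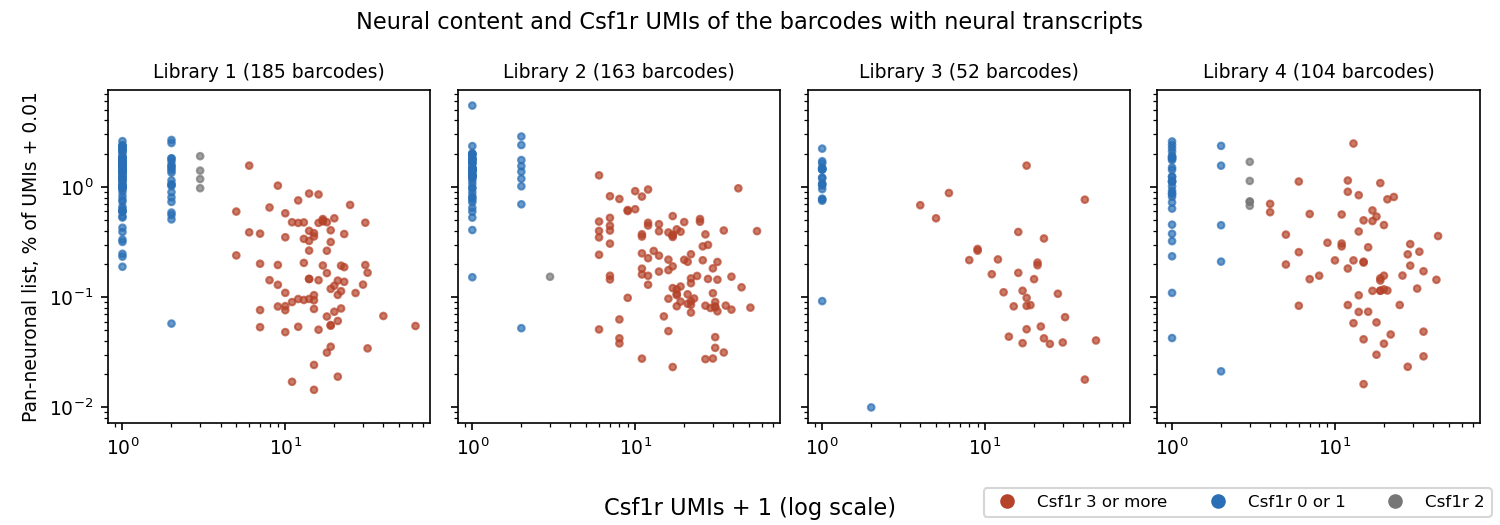
Neural content against Csf1r for each member, in 1 panel per library. The horizontal axis shows Csf1r UMIs plus 1 and the vertical axis the pan-neuronal list as percent of the barcode's UMIs plus 0.01, both on log scales; each point is a barcode. The 170 members with no Csf1r UMI stand at the left edge, mostly near 1%, and the Csf1r-high members lie lower and spread more widely.

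Depth differed between the Csf1r classes. Csf1r-high members had a median of 17967 UMIs and 4332.5 genes, against 4601.5 UMIs and 2066.5 genes in Csf1r-low members. By library the medians were 16093, 16260, 21476 and 21980 UMIs in Csf1r-high members, against 4856, 4053, 4764 and 5447.5 UMIs in Csf1r-low members. The ratio of medians was 3.90 pooled and 3.31 to 4.51 over the libraries. Csf1r-high barcodes with no UMI of either Tubb3 or Stmn2, 20690 in number and here called the comparison barcodes, had a median of 15257 UMIs. Csf1r-high members were deeper than these in all 4 libraries, by 1940, 2266, 5448 and 4502 UMIs. A rule of minimum counts favours deep barcodes, so this difference is in part built into the choice of members. The median mitochondrial share was 2.80% in Csf1r-high members, 2.49% in Csf1r-low members and 2.34% in comparison barcodes.

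**Figure D2:**
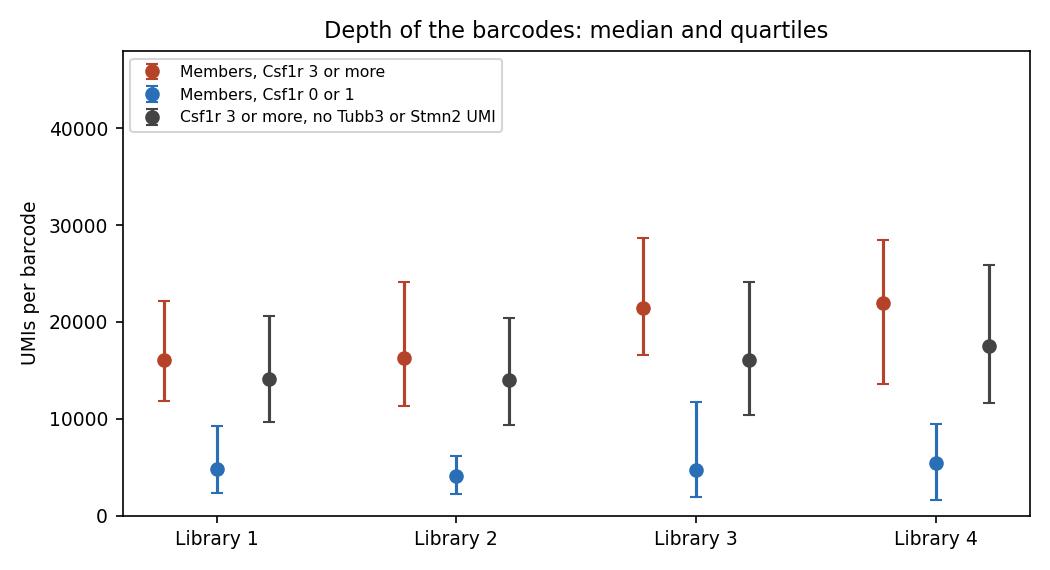
UMIs per barcode by library for Csf1r-high members, Csf1r-low members and the comparison barcodes (Csf1r-high with no Tubb3 or Stmn2 UMI). Points are medians and bars run between quartiles; Csf1r-low members lie lowest in each library, with medians of 4053 to 5447.5 UMIs.

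The neural transcripts of Csf1r-high members covered the whole pan-neuronal list and were lower there than in Csf1r-low members in every library. The rule sets a fixed count of Tubb3 and Stmn2, so the deeper Csf1r-high barcodes could be chosen at a lower neural share. Part of this difference is therefore built into the choice of members. Levels are given in CPM, each gene's count scaled to a common total, from the UMIs summed over a class, with exact Poisson 95% intervals where printed. Map1b, a microtubule-associated protein of growing axons, had 469 CPM (451 to 487) in Csf1r-high members, against 2470 CPM (2385 to 2558) in Csf1r-low members. By library it had 490, 488, 364 and 479 CPM in Csf1r-high members, against 2591, 2596, 2408 and 2074 CPM in Csf1r-low members, so the classes did not overlap. The comparison barcodes had 7.05 CPM. The membrane protein gene Rtn1 had 384 CPM in Csf1r-high and 2063 CPM in Csf1r-low members. Gap43, which encodes a growth cone protein, had 199 CPM in Csf1r-high and 1193 CPM in Csf1r-low members. Elavl3, an RNA-binding protein of neurons, had 132 CPM in Csf1r-high and 681 CPM in Csf1r-low members. Dcx, a microtubule protein of migrating neurons, had 71.3 CPM in Csf1r-high and 244 CPM in Csf1r-low members.

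Over the 20 pan-neuronal genes, the level in Csf1r-high members was 18.8% of that in Csf1r-low members at the median, from 11.9% for Nefm to 30.5% for Ina, both neurofilament-type proteins. All 20 were at least 2-fold lower on the log2(CPM + 10) scale, with a median difference of -2.27 and of -2.23, -2.43, -2.28 and -1.72 in libraries 1 to 4. Among all 9715 genes of at least 10 CPM in either class, 15.3% were at least 2-fold lower and 11.6% at least 2-fold higher, with a median of -0.24. At 4-fold, among 3950 genes of at least 50 CPM in either class, 3.9% (154 genes) were lower and 7.82% (309 genes) higher. With a pseudocount of 1 CPM the counts were 344 lower and 408 higher, and with members of 5 or more UMIs of both Tubb3 and Stmn2 they were 59 lower and 318 higher.

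In UMIs per barcode the neural content was less far apart, but as a percent of the barcode's UMIs it was not. Csf1r-high members held a median of 25 pan-neuronal UMIs (from 1 to 518), against 48 in Csf1r-low members (from 0 to 619). As a percent of the barcode's UMIs the medians were 0.156% in Csf1r-high and 1.31% in Csf1r-low members. The spread was wide. The middle 80% of Csf1r-high members ran from 0.0352% to 0.603%, and that of Csf1r-low members from 0.442% to 2.08%. In comparison barcodes the median was 0 UMIs, and the 90th percentile was 2 UMIs.

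Neural genes outside the list were also high in Csf1r-high members. Set against comparison barcodes, the genes with the largest positive differences were Nnat, Sox11, Tuba1a, Tubb2b, Map1b, Rtn1, Igfbpl1, Stmn3, Gap43, Dpysl3, Tagln3 and Uchl1. Of these, Map1b, Rtn1, Stmn3, Gap43, Dpysl3 and Uchl1 belong to the pan-neuronal list and the others lie outside it. Nnat, an imprinted gene of the developing brain, had 1221, 839, 582 and 765 CPM in Csf1r-high members of libraries 1 to 4, against 13.2, 10.8, 10.2 and 8.34 CPM in comparison barcodes. Sox11, a transcription factor of newborn neurons, had 587 CPM in Csf1r-high members, against 4.76 CPM in comparison barcodes. The tubulin gene Tuba1a had 3151 CPM in Csf1r-high members, against 85.4 CPM in comparison barcodes. These genes were carried widely: 286 of 288 Csf1r-high members had at least 2 UMIs of Tuba1a, 256 had at least 2 of Nnat and 238 at least 2 of Sox11, and no barcode held over 3.87% of any of the 3 genes' UMIs. Because Tubb3 and Stmn2 chose the members, these differences describe what came with those genes and are not a test of them. In this comparison, of 8349 genes of at least 10 CPM, 6.19% were higher by 2-fold or more and 1.57% lower by 2-fold or more, with a median of 0.07.

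Csf1r-high members held tissue macrophage genes at higher levels than the comparison barcodes, and microglia genes at levels close to theirs. Of the 9 genes of the tissue macrophage list, 7 reached 10 CPM in either class; 5 were 2-fold or more above the comparison barcodes and none was 2-fold lower. The median difference was 1.49, and 1.26, 1.43, 1.22 and 1.57 in libraries 1 to 4. Lyve1, a hyaluronan receptor, had 802, 747, 943 and 925 CPM in Csf1r-high members of libraries 1 to 4, against 187, 172, 228 and 146 CPM in comparison barcodes. Every library value of the members lay above every value of the other barcodes. The mannose receptor gene Mrc1 had 898 CPM in Csf1r-high members, against 314 CPM in comparison barcodes. The chemokine gene Pf4 had 3896 CPM in Csf1r-high members, against 1210 CPM in comparison barcodes. The scavenger receptor gene Stab1 had 845 CPM in Csf1r-high members, against 295 CPM in comparison barcodes, and the folate receptor gene Folr2 had 307 CPM, against 103 CPM in comparison barcodes. After each barcode was thinned to 2000 UMIs, 56.6% of Csf1r-high members (50.7 to 62.4) had a Lyve1 UMI, against 14.9% of comparison barcodes (14.4 to 15.4); 0 Csf1r-high members and 166 comparison barcodes were shallower and left out. Unthinned, the shares were 80.9% in Csf1r-high members and 26.0% in comparison barcodes. Barcodes with 5 or more UMIs of both Elane and Mpo (granule genes of neutrophil precursors, median depth 32409 UMIs), which should lack the gene, had 0.953% thinned and 6.95% unthinned.

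Of the 14 microglia genes, of which 12 reached 10 CPM in either class, none was 2-fold higher or lower, with a median difference of 0.14 and of -0.13, 0.25, 0.17 and 0.02 in libraries 1 to 4. When the barcodes' own CPM were averaged the median was -0.26, so its sign depended on the averaging. P2ry12, a purine receptor of microglial processes, had 92.1 CPM (84.4 to 100.4) in Csf1r-high members and 92.9 CPM (91.9 to 93.9) in comparison barcodes. By library it had 76.8, 132, 70.3 and 67.4 CPM in Csf1r-high members, against 99.3, 122, 73.8 and 79.2 CPM in comparison barcodes, and these ranges overlap. Tmem119 had 26.1 CPM in Csf1r-high members, against 38.6 CPM in comparison barcodes. Fcrls had 898 CPM in Csf1r-high members, against 577 CPM in comparison barcodes. Comparison barcodes with 3 or more Lyve1 UMIs had 1040 CPM of Fcrls and 95.3 CPM of P2ry12, so these genes are not limited to barcodes without Lyve1. Thinned to 2000 UMIs, 17.7% of Csf1r-high members (13.5 to 22.6) had a P2ry12 UMI, against 15.5% of comparison barcodes (15.0 to 16.0) and 1.03% of the Elane and Mpo barcodes. Unthinned, the shares were 68.1% in Csf1r-high members and 49.0% in comparison barcodes.

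Monocyte and granulocyte genes were low in Csf1r-high members. Of 7 monocyte genes 6 were at least 2-fold lower than in comparison barcodes, with a median of -1.53. The chemokine receptor gene Ccr2 had 36.3 CPM in Csf1r-high members, against 218 CPM in comparison barcodes, and Plac8 had 121 CPM in Csf1r-high members, against 958 CPM in comparison barcodes. All 7 granulocyte genes were at least 2-fold lower, among them Mpo and Prtn3, both of neutrophil granules. Mpo had 16.6 CPM in Csf1r-high members, against 405 CPM in comparison barcodes. Of 7 genes of Kupffer cells, the macrophages of the liver, 3 were at least 2-fold lower, Cd5l, Marco and Spic. The 12 lowest genes among those of at least 50 CPM in either class and lower in all 4 libraries were Prtn3, Mpo, Elane, Plac8, Ly6c2, S100a8, Napsa, Hp, Ifitm1, Stfa1, Ctsg and Cd74. No cell cycle gene was 2-fold apart, with a median of -0.70.

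**Figure D3:**
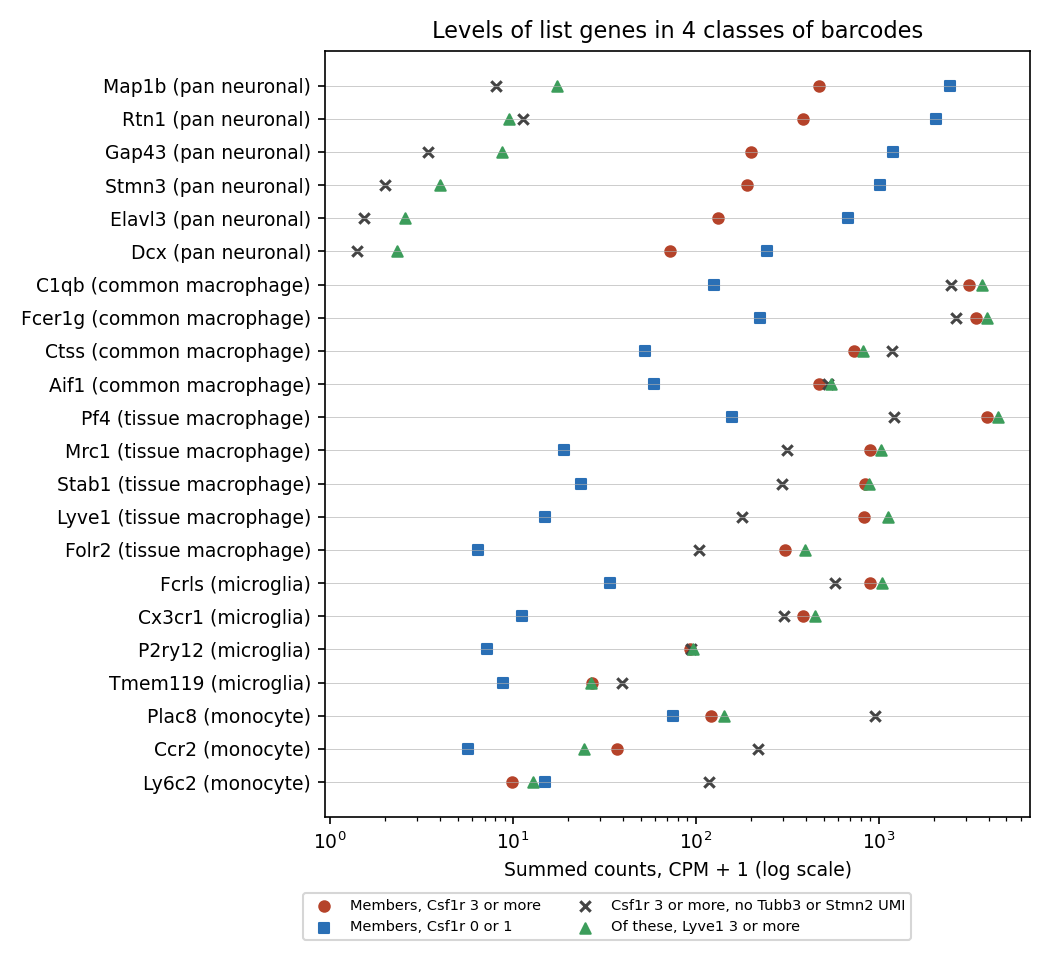
Levels of 22 genes of 5 lists in 4 classes of barcodes, as summed counts in CPM plus 1 on a log axis. Circles are Csf1r-high members, squares Csf1r-low members, crosses comparison barcodes and triangles those of them with 3 or more Lyve1 UMIs. For neural genes the circles lie between squares and the other symbols; for tissue macrophage genes the circles lie near the triangles.

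The share of members was then taken within classes of Csf1r-high barcodes set by 3 or more UMIs of Lyve1, P2ry12 or Ccr2, a division made after the gene levels had been seen. Barcodes with both Lyve1 and P2ry12 were members in 43 of 806 cases, or 5.33% (3.89 to 7.12). Those with Lyve1 only were members in 157 of 3936, or 3.99% (3.40 to 4.65). Those with P2ry12 only were members in 15 of 2590, or 0.579% (0.324 to 0.953), and those with Ccr2 but neither of these in 11 of 7731, or 0.142% (0.0710 to 0.254). Barcodes with none of the 3 genes were members in 62 of 8323, or 0.745%. By library the share was 4.22%, 5.11%, 1.79% and 4.12% with Lyve1 only, against 0.528%, 0.736%, 0% and 0.714% with P2ry12 only, so the lowest value with Lyve1 lay above the highest with P2ry12 alone. Median depth was 18213.5 UMIs with both Lyve1 and P2ry12, 14396 with Lyve1 only and 12813 with none of the 3 genes. It was 12110.5 with P2ry12 only and 19893 with Ccr2, so depth followed the order of the shares except for Ccr2. Among barcodes of 10000 to 20000 UMIs the shares were 3.40% with both Lyve1 and P2ry12 and 3.66% with Lyve1 only. The class with both genes was thus not the higher of these at that depth. The shares there were 0.696% with none of the 3 genes, 0.636% with P2ry12 only and 0.193% with Ccr2.

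**Figure D4:**
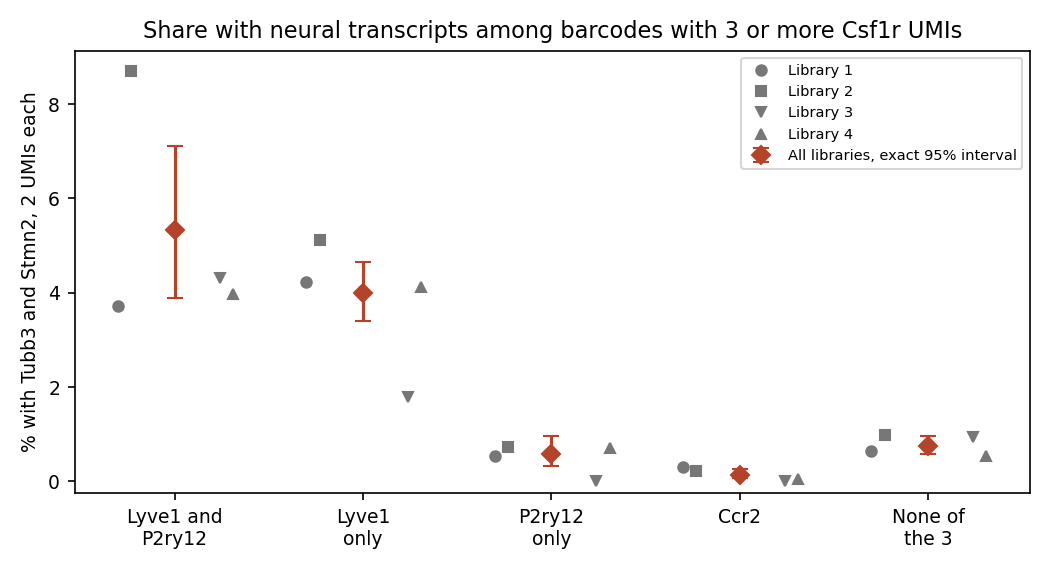
Percent of Csf1r-high barcodes that were members, by marker class. Diamonds are all libraries with exact binomial 95% intervals and grey symbols the 4 libraries; the Lyve1 classes stand at 5.33% and 3.99% and the other 3 classes below 1%.

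Put the other way, 200 of 288 Csf1r-high members carried 3 or more Lyve1 UMIs, or 69.4% (63.8 to 74.7), against 3382 of 20690 comparison barcodes, or 16.3%. By library the shares were 69.8%, 71.2%, 60.6% and 70.8% in members, against 17.4%, 16.0%, 18.7% and 14.2% in comparison barcodes. At 10000 to 20000 UMIs they were 70.8% of 130 members, against 20.1% of 9009 comparison barcodes. Members with P2ry12 only were 5.21% of the Csf1r-high members, against 11.4% of the comparison barcodes. Those with Ccr2 were 3.82% of the Csf1r-high members, against 35.9% of the comparison barcodes.

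Outside the macrophages, members were scarce in most marker classes. Barcodes with 5 or more UMIs of both Elane and Mpo included 0 of 1267, which allows a share of up to 0.237%. A single UMI was more widespread: Tubb3 was seen in 20.2% and Stmn2 in 17.0% of Csf1r-high barcodes with Lyve1 only, and Tubb3 in 2.84% and Stmn2 in 1.26% of the Elane and Mpo barcodes. Barcodes with 5 or more UMIs of the collagen genes Col1a1 and Col1a2 included 13 of 654, or 1.99% (1.06 to 3.38), of which 10 were Csf1r-high.

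Compared within Lyve1-carrying barcodes, members differed from the others in neural genes and some genes of other cell types, and little in macrophage genes. The 200 Lyve1-carrying members were set against the 3382 Lyve1-carrying comparison barcodes. Of 8172 genes of at least 10 CPM, 343 (4.2%) were at least 2-fold higher in the members and 11 (0.135%) at least 2-fold lower, with a median of 0.02. All 20 pan-neuronal genes were at least 2-fold higher, with a median of 2.90. Of 8 mesenchymal genes, 4 were at least 2-fold higher. At least 2-fold lower were 3 of 4 genes of liver cells (hepatocytes) and 2 of 7 granulocyte genes. So were 1 of 7 monocyte, 1 of 4 megakaryocyte and 1 of 7 red cell genes. None of the 9 tissue macrophage, 14 microglia, 12 common macrophage or 12 uptake and lysosome genes was 2-fold apart on the log2(CPM + 10) scale, and their medians were -0.02, -0.13, -0.25 and -0.20. As a percent of the level in the other Lyve1 barcodes, the 12 common macrophage genes ran from 78.6% for Ctss to 92.8% for Fcer1g, with a median of 83.9%. The uptake and lysosome genes had a median of 87.0%, from 73.7% for Axl to 103% for Mfge8. The other lists ran more widely, from 52.8% for Cbr2 to 107% for Stab1 among tissue macrophage genes and from 74.4% for Gpr34 to 246% for Sall1 among microglia genes. Sall1, a transcription factor of microglia, was low in both, at 4.23 CPM (18 UMIs) in Lyve1-carrying members and 1.72 CPM in the other Lyve1 barcodes. Mertk, a receptor for dying cells, had 35.7 CPM in Lyve1-carrying members and 34.6 CPM in the other Lyve1 barcodes, and its bridging ligand Gas6 had 780 CPM in Lyve1-carrying members and 812 CPM in the other Lyve1 barcodes.

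Depth in the same comparison was 18767.5 UMIs at the median in Lyve1-carrying members, against 14690.5 UMIs in the other Lyve1 barcodes. The difference was 4077 UMIs, and the median of the Csf1r-low members was 4601.5 UMIs. Members needed minimum counts of Tubb3 and Stmn2 while the other barcodes held none. Part of the difference is therefore built into the choice of both classes, and its cause was not tested. By library the differences were 2574.5, 3687, 8613 and 6840.5 UMIs, beside Csf1r-low medians of 4856, 4053, 4764 and 5447.5 UMIs. The order of the libraries was not the same in both.

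Among the Csf1r-high members, those with more neural content had lower macrophage levels. In 99 members with under 0.1% pan-neuronal UMIs, the 12 common macrophage genes summed to 19730 CPM. In 127 members with 0.1 to 0.4% they summed to 18394 CPM, and in 62 members with 0.4% or more to 14506 CPM. Lyve1 had 960, 841 and 576 CPM in the 3 bands, and P2ry12 91.0, 98.3 and 81.3 CPM. The median depth was 20324, 16795 and 16583.5 UMIs. CPM of a class sum to a fixed total, so neural and macrophage levels are not independent measures.

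Csf1r-low members held little macrophage RNA. The common macrophage list had a median of 5 UMIs per barcode, and 8 of 206 barcodes held 20 or more, against 288 of 288 Csf1r-high members. C1qb had 3135 CPM in Csf1r-high and 125 CPM in Csf1r-low members, and the lipoprotein gene Apoe had 16415 CPM in Csf1r-high and 714 CPM in Csf1r-low members. Lyve1 had 834 CPM in Csf1r-high members and 14.1 CPM (8.33 to 22.2) in Csf1r-low members, beside 9.31 CPM (8.40 to 10.3) in the Elane and Mpo barcodes. P2ry12 had 92.1 CPM in Csf1r-high and 6.25 CPM (2.70 to 12.3) in Csf1r-low members, and Siglech had 28.4 CPM in Csf1r-high members and 0 UMIs in Csf1r-low members. The 12 genes highest in Csf1r-high over Csf1r-low members were all abundant in macrophages: Lyve1, Mrc1, Stab1, C1qb, Pf4, Apoe, Fcrls, Folr2, Dab2, Ccl2, C1qa and C1qc.

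The 12 lowest genes of that comparison were Ngp, S100a9, S100a8, Atf5, Cartpt, Chgb, Phox2a, Nefl, Nefm, Isl1, Agtr2 and Stmn4. The first 3 are neutrophil genes and came from few barcodes, since a single Csf1r-low member held 98.5% of that class's Ngp UMIs. Without the 3 Csf1r-low members that held 20 or more granulocyte UMIs, 169 genes were at least 4-fold lower, against 154 with them. Phox2a, a transcription factor of autonomic neurons, had 0, 0, 4.93 and 14.6 CPM in Csf1r-high members, against 51.8, 143, 206 and 71.9 CPM in Csf1r-low members. At least 2 Phox2a UMIs were found in 4 of 288 Csf1r-high and 8 of 206 Csf1r-low members. Isl1, a transcription factor of motor, sensory and sympathetic neurons, was found in the same way in 3 of 288 Csf1r-high and 14 of 206 Csf1r-low members, with 10.5 CPM in Csf1r-high and 129 CPM in Csf1r-low members. For Atf5, Cartpt and Agtr2 a single barcode held 45.5 to 58.2% of the UMIs of Csf1r-low members.

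Neural types were read from lists of marker genes, and a barcode was said to carry a list when it held 3 or more UMIs over at least 2 of its genes. Cortical excitatory neuron genes were the most often carried neuron type list in Csf1r-high members, by 55 of 288, or 19.1% (14.7 to 24.1), against 38 of 206 Csf1r-low members, or 18.4% (13.4 to 24.4). By library they were carried by 18, 17, 8 and 12 Csf1r-high members, against 17, 11, 4 and 6 Csf1r-low members. Neurod6, a transcription factor of cortical projection neurons, had 75.5 CPM in Csf1r-high and 418 CPM in Csf1r-low members, and Neurod2, of the same family, had 62.2 CPM in Csf1r-high and 213 CPM in Csf1r-low members. As a percent of pan-neuronal UMIs, which adjusts for the lower neural content, the cortical list made up 6.75% in Csf1r-high and 5.51% in Csf1r-low members. The list was carried by 2 of 20690 comparison barcodes.

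Inhibitory neuron lists were carried by smaller shares of Csf1r-high than of Csf1r-low members in libraries 1 and 2 but not in library 4, and the difference was not tested. The forebrain GABAergic list, with the Dlx transcription factors of the ventral forebrain, was carried by 11 of 288 Csf1r-high members, or 3.82% (1.92 to 6.73), against 30 of 206 Csf1r-low members, or 14.6% (10.0 to 20.1). The counts came mainly from libraries 1 and 2, at 3, 5, 0 and 3 Csf1r-high members, against 18, 11, 0 and 1 Csf1r-low members in libraries 1 to 4. In library 4 the order was reversed, on 3 Csf1r-high members and 1 Csf1r-low member. Dlx2 had 5.25 CPM in Csf1r-high and 78.9 CPM in Csf1r-low members. As a percent of pan-neuronal UMIs the list made up 0.997% in Csf1r-high and 2.36% in Csf1r-low members, and by library 0.482%, 2.32%, 0% and 0.445% in Csf1r-high members, against 2.77%, 3.72%, 0.469% and 0.259% in Csf1r-low members. General inhibitory genes, such as Gad2, which makes GABA, and Lhx1 were carried by 22 Csf1r-high members, or 7.64% (4.85 to 11.3), against 38 Csf1r-low members, or 18.4% (13.4 to 24.4). As a percent of pan-neuronal UMIs they made up 1.40% in Csf1r-high and 2.14% in Csf1r-low members, and in library 4 1.31% in Csf1r-high and 1.26% in Csf1r-low members. In library 4 they were carried by 9 of 65 Csf1r-high and 4 of 34 Csf1r-low members.

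Genes of other neural types were rarer. Subcortical excitatory genes were carried by 22 Csf1r-high members (7.64%) and 16 Csf1r-low members (7.77%). Autonomic genes were carried by 25 Csf1r-high members (8.68%, 5.70 to 12.5) and 31 Csf1r-low members (15.0%, 10.5 to 20.7), and the intervals overlap. By library they were carried by 7, 5, 3 and 10 Csf1r-high members, against 19, 5, 4 and 3 Csf1r-low members. In library 4, with 65 Csf1r-high and 34 Csf1r-low members, the order was reversed. A single Csf1r-low member held 25.5% of that class's UMIs of the list. Dbh, which makes noradrenaline, had 0 UMIs in Csf1r-high members and 45 UMIs in Csf1r-low members, of which a single barcode held 60.0%. Sensory genes were carried by 6 Csf1r-high and 4 Csf1r-low members, and motor neuron genes by 3 Csf1r-high and 3 Csf1r-low members. Neural progenitor genes were carried by 36 Csf1r-high members (12.5%) and 25 Csf1r-low members (12.1%), but Nes, a filament gene of progenitors, had 15.2 CPM in Csf1r-high members, 14.8 CPM in Csf1r-low members and 15.6 CPM in comparison barcodes. In the crest glia list, Ednrb had 334 CPM in Csf1r-high members, 21.9 CPM in Csf1r-low members and 425 CPM in Lyve1-carrying comparison barcodes, while the glial transcription factor Sox10 had 1.75 CPM in Csf1r-high and 1.56 CPM in Csf1r-low members. The list was not read as glia.

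**Figure D5:**
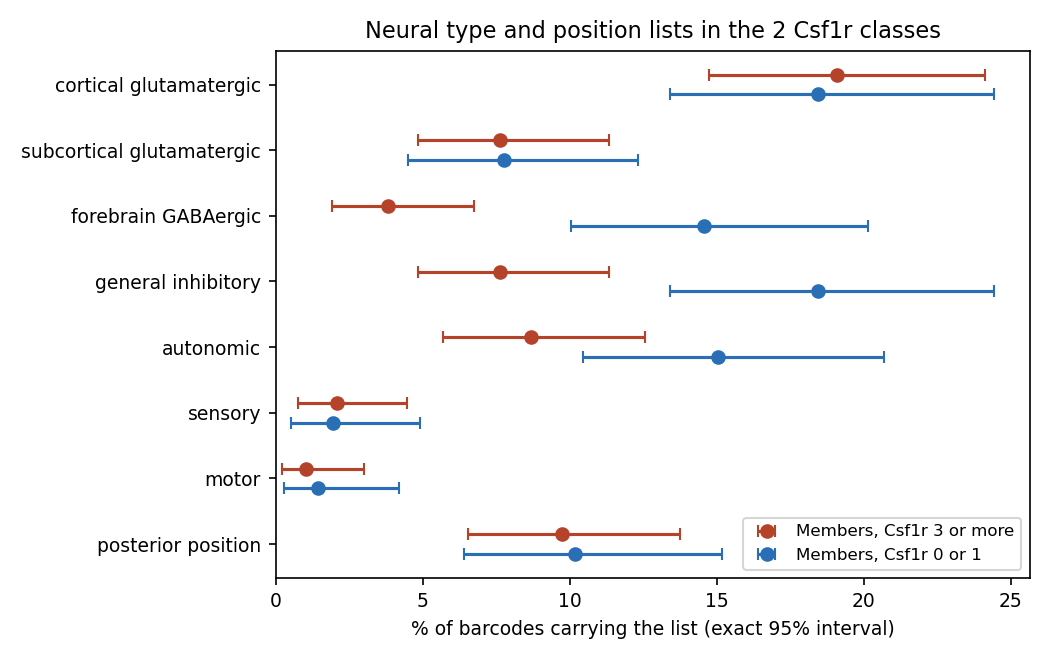
Percent of Csf1r-high and Csf1r-low members that carried each neural type or position list, with exact binomial 95% intervals. Csf1r-high members stand at 19.1% and Csf1r-low members at 18.4% for cortical excitatory genes, and Csf1r-high members at 3.82% and Csf1r-low members at 14.6% for forebrain GABAergic genes.

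Posterior Hox genes, which mark hindbrain and spinal cord levels of the body axis, were carried by 28 Csf1r-high members (9.72%) and 21 Csf1r-low members (10.2%). The list was also carried by 52 of 20690 comparison barcodes (0.251%), and whether its RNA in the members was neural was not tested. Cortical and forebrain GABAergic lists were carried together by 0 Csf1r-high and 0 Csf1r-low members, and cortical and posterior lists by 5 Csf1r-high and 2 Csf1r-low members. Cortical and autonomic lists met in 5 Csf1r-high and 5 Csf1r-low members. No neuron type list was carried by 173 Csf1r-high and 85 Csf1r-low members, exactly 1 by 89 Csf1r-high and 83 Csf1r-low members, and 2 or more by 26 Csf1r-high and 38 Csf1r-low members.

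Of the neuronal ligands, Cd24a and Cd200 were found in Csf1r-high members, as were the receptor genes of Cd200 and Cx3cl1. The adhesion molecule gene Cd24a had 306 CPM in Csf1r-high members, 1366 CPM in Csf1r-low members and 22.2 CPM in comparison barcodes. The ligand gene Cd200 had 22.3 CPM in Csf1r-high and 109 CPM in Csf1r-low members, and its receptor gene Cd200r1 had 59.9 CPM in Csf1r-high and 1.56 CPM in Csf1r-low members. Cx3cl1 was low in both, at 0.525 CPM in Csf1r-high and 3.12 CPM in Csf1r-low members, while its receptor gene Cx3cr1 had 385 CPM in Csf1r-high and 10.1 CPM in Csf1r-low members.

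The tdTomato reporter followed the macrophage side. It had 274 CPM (260 to 288) in Csf1r-high members, against 39.8 CPM (29.6 to 52.4) in Csf1r-low members. By library the values were 196, 310, 205 and 347 CPM in Csf1r-high members, against 23.4, 38.3, 103 and 43.9 CPM in Csf1r-low members. Lyve1-carrying members had 283 CPM (267 to 299) and Lyve1-carrying comparison barcodes 271 CPM (267 to 276), so these pooled intervals overlap, whereas all comparison barcodes had 136 CPM. By library the values were 216, 316, 189 and 359 CPM in Lyve1-carrying members, against 188, 265, 283 and 352 CPM in Lyve1-carrying comparison barcodes. The intervals lay apart in library 2, where the members were higher, and in library 3, where they were lower. After thinning to 2000 UMIs, 34.0% of Csf1r-high members had a tdTomato UMI, against 8.43% of Csf1r-low members, with 0 Csf1r-high and 40 Csf1r-low members shallower and left out; unthinned the shares were 64.9% in Csf1r-high and 18.0% in Csf1r-low members. The Elane and Mpo barcodes had 33.2 CPM (31.4 to 35.0), 6.67% thinned (5.36 to 8.19) and 47.4% unthinned, and whether they should lack the reporter is not given by the labels. The pooled level and thinned share of Csf1r-low members lay close to these and are not read as expression. In library 3 Csf1r-low members had 103 CPM (57.6 to 170, 15 UMIs), above the 32.0 CPM (29.0 to 35.2) of its Elane and Mpo barcodes. Their thinned share there was 21.4% (4.66 to 50.8), against 6.43% (4.28 to 9.22). In libraries 1, 2 and 4 the intervals of the levels overlapped. The difference in library 3 was not tested.

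RNA of both sexes in a barcode was counted as 2 or more UMIs of Xist, the RNA of the inactive X chromosome, with 2 or more of 4 Y-linked genes. Libraries 3 and 4 held 2 and 0 barcodes with such Xist counts, so the measure has no reach there. At 10000 to 30000 UMIs in libraries 1 and 2, both were found in 8 of 141 Csf1r-high members, or 5.67% (2.48 to 10.9), against 82 of 7002 comparison barcodes, or 1.17% (0.932 to 1.45). Within Lyve1-carrying barcodes the counts were 5 of 105 members, or 4.76% (1.56 to 10.8), against 40 of 1333 others (2.15 to 4.06%), and these intervals overlap. All 8 members came from library 2, where they were 10.8% of 74, against 29 of 3261 comparison barcodes (0.889%). Library 1 had 0 of 67 members, with an interval up to 5.36%, against 53 of 3741 comparison barcodes (1.42%). Csf1r-low members had 0 of 25, with an interval up to 13.7%.

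Mesenchymal RNA was also higher in Csf1r-high members than in comparison barcodes. Of 8 mesenchymal genes, 4 reached 10 CPM and the same 4 were at least 2-fold higher than in comparison barcodes, Col3a1, Col1a2, Col1a1 and Dcn, all of the extracellular matrix. Col3a1 had 69.9 CPM in Csf1r-high members, against 9.69 CPM in comparison barcodes. The list's median was 1.09, and 0.32, 1.59, 0.72 and 0.80 in libraries 1 to 4. Against Csf1r-low members none of the 8 genes was 2-fold apart, with a median of 0.26. In libraries 1 to 4 the list summed to 106, 301, 281 and 270 CPM in Csf1r-high members. Csf1r-low members had 191, 31.4, 20.6 and 435 CPM, so the order differed between libraries. Barcodes with 20 or more mesenchymal UMIs were 14 of 288 Csf1r-high members, or 4.86% (2.68 to 8.02), against 126 of 20690 comparison barcodes, or 0.609% (0.508 to 0.725). Among Lyve1-carrying barcodes they were 9 of 200 members, or 4.5% (2.08 to 8.37), against 55 of 3382 others, or 1.63% (1.23 to 2.11). The list's median within Lyve1-carrying barcodes was -0.54, 1.78, 0.16 and 0.33 in libraries 1 to 4, so library 1 went the other way. Red cell genes had 1598, 6831, 645 and 954 CPM in Csf1r-high members of libraries 1 to 4, against 3336, 1862, 2462 and 2369 CPM in comparison barcodes. They were thus lower in the members of 3 libraries and higher in those of library 2, where a single barcode held 11488 UMIs. The part of these transcripts, of depth and of both-sex barcodes in the neural signal was not tested.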

How the data were processed

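Counts of UMIs per gene and barcode were deposited by the authors as 1 matrix of 31054 features and 39048 barcodes, made with Cell Ranger 3.0.1 per the file headers; Cell Ranger 2.1.1 and mm10 stand in the submitters' processing notes. Filters removed 4461 barcodes. No source used here says whether reads were subsampled. The cell filter, counts summed per class, CPM and log2(CPM + 10) differences were computed with Python 3.11.15, numpy 2.4.6 and scipy 1.17.1 and checked on simulated data. The pseudocount of 10 CPM understates differences of low genes, so CPM pairs give larger folds for them.

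Doublets were not removed. Scrublet (scanpy 1.11.5) marked 1, 0, 214 and 0 barcodes in libraries 1 to 4, too few in libraries 1, 2 and 4 for the caller to have worked there; 2 members, both Csf1r-high, were among them.

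Members and gene lists (33 lists, 1 gene of them not in the matrix) were chosen with earlier results of these data known. Named genes were list members, up to 6 per list by UMIs, and the 12 highest and 12 lowest genes of each comparison with at least 50 CPM in the higher class and 1 direction throughout the libraries with 20 or more barcodes of both classes, leaving out ribosomal, mitochondrial and predicted genes. Other genes named, the Lyve1, P2ry12 and Ccr2 classes, the use of Elane and Mpo barcodes as background and the comparison within Lyve1-carrying barcodes were chosen after values were seen. Alternatives varied the UMI limits, cell filter, averaging, pseudocount, thinning depth and library left out. Some genes are not reported here.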

Additional observations from a re-analysis of the deposited data

Results flagged for a closer look

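The Csf1r-high share of members was 46.5% in library 1, against 62.5 to 63.8% in libraries 2 to 4, so that most of the range over the 4 libraries lay between library 1 and the others. Among Csf1r-high members of 10000 to 30000 UMIs, the share with Xist and Y-linked UMIs was 10.8% in library 2, against 0% in libraries 1, 3 and 4, where libraries 3 and 4 hold almost no Xist; without library 2 the pooled value was 0%. At any depth it was 2 of 86 Csf1r-high members in library 1, or 2.33% (0.283 to 8.15), against 1.44% of comparison barcodes, and 11 of 104 in library 2, or 10.6%, against 1.06% of comparison barcodes. The nominal level of the rule that flagged these values is about 1 in 20 groups of 4 libraries by chance alone. That rate was not measured here, and no explanation was tested.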

How the results depend on the processing

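Of 139 alternative values, 111 stayed within their limits and 28 moved, of which 1, the microglia list median, changed sign. Stricter limits on Tubb3 and Stmn2 gave smaller sets. At 3 UMIs each, members were 1.09% of kept barcodes. At 5 each, they were 0.775%, 48.1% of them were Csf1r-high, the ratio of median depths was 3.11, the pan-neuronal median -1.83, genes 4-fold lower 59, and the member share 1.88% of Lyve1 barcodes and 0.232% of P2ry12-only barcodes. The stricter cell filter gave a Csf1r-high share of 63.4% and a depth ratio of 2.82, and no filter a ratio of 4.79. Averaging the barcodes' own CPM gave -0.26 for the microglia list, against 0.14, and 1.21 for the tissue macrophage list. A pseudocount of 1 CPM gave 344 genes 4-fold lower. P2ry12 was found in 29.0% of Csf1r-high members at 4000 UMIs and 68.1% unthinned. Xist and Y at 1 UMI each gave 8.21%. Of the alternatives added after the data were seen, Lyve1 at 5 UMIs, Lyve1 at 1 UMI and Mrc1 at 3 UMIs marked 63.5%, 80.9% and 93.1% of Csf1r-high members, and 3.62% of Lyve1 barcodes of 10000 to 20000 UMIs were members. Leaving out each library in turn gave ranges of 1.22 to 1.77% for members, 54.0 to 63.3% for the Csf1r-high share, 0 to 5.71% for Xist and Y, and 3.65 to 4.67% for members among Lyve1 barcodes. The causes were not tested. No paired analysis was possible because the matrix carries none of the labels' replicate numbers; differences within each library stand beside the pooled values, untested.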
